A study of Mus musculus with 4 samples.

Results

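The miRNA genes described here are 7 hairpin genes of 3 families that are known to rise in glia or in the later postnatal brain: Mir29a, Mir29b-1, Mir29b-2 and Mir29c, Mir219a-1 and Mir219a-2, and Mir338. They were measured by AGO2 eCLIP, in which RNA crosslinked to the Argonaute protein AGO2 is immunoprecipitated (IP) and sequenced beside a size-matched input, in the whole brain of newborn mice (postnatal day 0) on the C57BL/6 background. One IP with its input came from wild-type mice and the other pair from mice labelled FMR1 ko, a knockout of the gene for the RNA-binding protein FMRP. Both groups share the strain background, the age and the tissue, and the knockout allele, the number of animals and any pooling are not given in the sources used here. Members are the called regions that overlap one of these genes by 1 base or more on its strand. They came to 13 of 46860 clusters in the wild-type library, 11 of 86106 in the knockout-labelled library, and 13 of 46862 regions of a deposited table in which the 2 IPs are compared directly. Of the 7 genes, 6 had a region in all of them, and Mir29b-1 had none in any.

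Each genotype had 1 IP library, so no replicates stand behind any difference between genotypes, which compares these libraries and has no test across samples. Fmr1 itself carried 2 clusters in wild type and 5 under the knockout label, none of them enriched, and since the allele is not given these check no label. By depth, the IP labelled knockout exceeded the wild-type one 2.28 times, and the inputs were 6.34 times (wild type) and 1.92 times (knockout-labelled) as deep as their IPs. Clusters rested on few reads, with a median of 4 IP reads in each library. Intervals are exact 95% intervals, binomial for ratios and shares and Poisson for read counts, and cover counting error only.

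A miRNA hairpin is cut into a short duplex, one strand of which (from the 5′ arm, 5p, or the 3′ arm, 3p) is kept by an Argonaute protein and guides it to mRNAs that pair with its seed, bases 2 to 8. miR-219 and miR-338 are known from the oligodendrocyte lineage, where they promote the step from dividing precursor to myelinating cell by repressing factors that hold precursors back. miR-29 is known for rising strongly as the brain matures, in astrocytes and in neurons, and for repressing collagens, DNA methylation enzymes and pro-apoptotic genes of the BH3-only group. The brain at birth is before most myelination, so these miRNAs are read here at the low end of their known course. Only this one age was sampled, so no rise with age could be measured.

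The mature strands on which the AGO2 clusters lay are shown first, since they define which targets each gene can reach and which genes cannot be told apart. The sequences are those of RefSeq for GRCm38.p6 (mm10), where all 7 genes were found, and they read the same in the genome. Capitals mark the seed.
miR-29a-3p (Mir29a): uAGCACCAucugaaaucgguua
miR-29b-3p (Mir29b-1 and Mir29b-2): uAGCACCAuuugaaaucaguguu
miR-29c-3p (Mir29c): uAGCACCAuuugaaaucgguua
miR-219a-5p (Mir219a-1 and Mir219a-2): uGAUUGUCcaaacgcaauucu
miR-338-3p (Mir338): uCCAGCAUcagugauuuuguug
miR-338-5p (Mir338): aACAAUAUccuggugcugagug
miR-29c-5p (Mir29c): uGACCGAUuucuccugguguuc
The miR-29 3p strands share one seed, AGCACCA, and differ only in their later bases. miR-29b-3p and miR-219a-5p each have 2 exact copies in the mm10 chromosomes, one per gene, and the other 5 strands have 1.

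The bases just beside a strand with 2 copies are what can assign a read to one gene, and they are shown here as the DNA of each gene's own strand, the mature sequence with 3 bases on either side. Capitals mark bases that differ between the copies.
Mir29b-1 (chr6:31063022-31063050, minus strand): GtctagcaccatttgaaatcagtgttCtT
Mir29b-2 (chr1:195037088-195037116, plus strand): AtctagcaccatttgaaatcagtgttTtA
Mir219a-1 (chr17:34025049-34025075, minus strand): TCctgattgtccaaacgcaattctCgA
Mir219a-2 (chr2:29845686-29845712, minus strand): CActgattgtccaaacgcaattctTgT
In both pairs the first base after the mature 3′ end already differs. The identical run is 25 bases for miR-29b and 22 bases for miR-219a. How reads with more than one place in the genome were treated is not given in the sources used here.

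In mm10 with GENCODE M21, Mir29a (ENSMUSG00000065610.1) lies at chr6:31062660-31062747 on the minus strand, 275 bases from Mir29b-1 (ENSMUSG00000065604.2, chr6:31063023-31063093), which overlaps an exon of the non-coding gene Gm27019. Mir29b-2 (ENSMUSG00000065412.3, chr1:195037040-195037120) and Mir29c (ENSMUSG00000065548.1, chr1:195037547-195037634) lie 426 bases apart on the plus strand, in exons of the non-coding gene A330023F24Rik and opposite an exon of Cd46. Mir219a-1 (ENSMUSG00000065555.1, chr17:34024983-34025092) overlaps an exon of the non-coding gene Gm26940, and Mir219a-2 (ENSMUSG00000065485.1, chr2:29845631-29845727) no gene on its strand. Mir338 (ENSMUSG00000065600.1, chr11:120014765-120014862) lies in an intron of Aatk, which encodes a kinase of the nervous system. Mir219c, Mir219b and Mir3065 are annotated on the strand opposite Mir219a-1, Mir219a-2 and Mir338. None of these opposite hairpins held a cluster, and no member had a region on the other strand.

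The AGO2 clusters took the shape of the mature strands. Abutting regions with one and the same score were read as 1 cluster, since they rest on the same reads, which left 8 clusters in wild type and 7 under the knockout label. On the 5 main strands (miR-29a-3p, miR-29c-3p, both copies of miR-219a-5p, and miR-338-3p), wild-type clusters were 23 to 26 bases long and began 1 or 2 bases before the mature 5′ end. In the knockout-labelled library the same clusters were 21 to 24 bases long and began 0 to 2 bases before it. At their 3′ ends, the clusters of Mir219a-1 ran 3 bases past the mature end in both libraries, over bases that differ between the copies, and those of Mir219a-2 ran 1 base past it in wild type and 2 in the other. The Mir29b-2 cluster was the longest of the set, 28 bases in wild type, from 2 bases before to 3 bases after miR-29b-3p, and 26 bases in the knockout-labelled library.

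**Figure D1:**
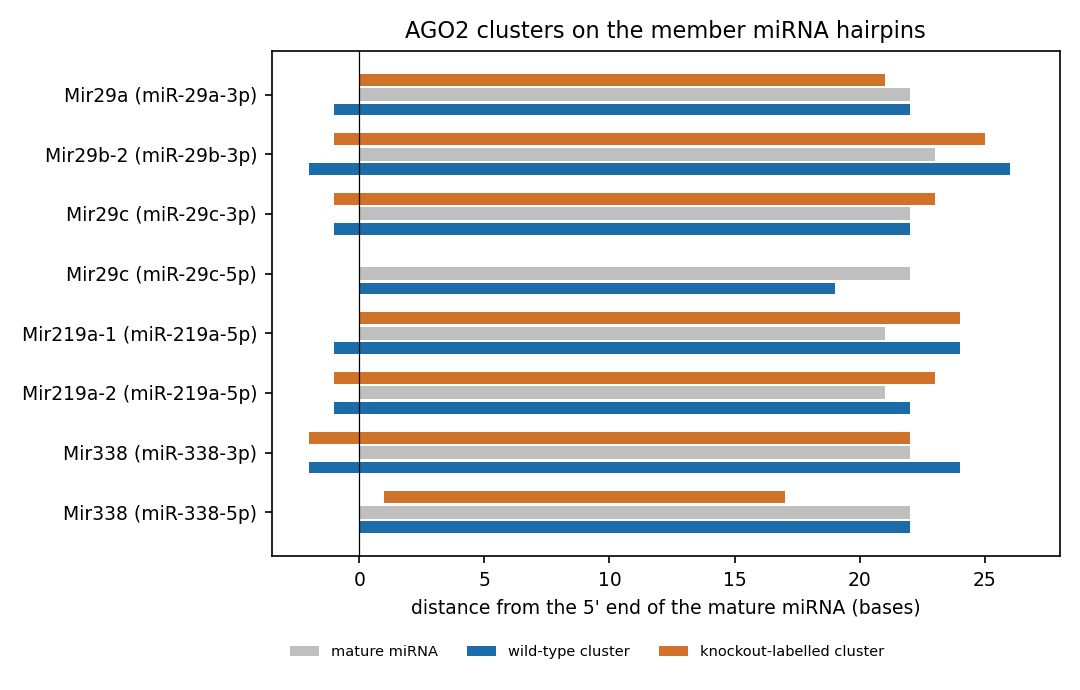
Each row is a mature strand with a cluster, drawn in grey by length. The horizontal axis is the distance in bases from its 5′ end, and blue (below) and orange (above) bars span the wild-type and knockout-labelled clusters. The clusters start within 2 bases of the mature 5′ end, and miR-29c-5p had one in wild type only.

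The arm held by AGO2 differed by family. The miR-29 genes gave clusters mainly from the 3p arm, the miR-219 genes from the 5p arm alone, and Mir338 from both arms. At Mir338, the wild-type IP had 96 reads on miR-338-3p and 13 on miR-338-5p, so the 3p arm held 88.1% of them (80.5 to 93.5). Over the same bases, the knockout-labelled IP had 84 and 7 reads, a 3p share of 92.3% (84.8 to 96.9), within the wild-type interval. At Mir29c, the wild-type IP had 42 reads on the 3p arm and 4 on the 5p arm (91.3%, 79.2 to 97.6). The knockout-labelled IP had 40 and 3 (93.0%, 80.9 to 98.5), although no 5p cluster was called there. The other arms of Mir29a, Mir29b-2 and Mir219a-1 held no cluster in either library.

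By IP reads in wild type, the order was miR-338-3p, miR-29a-3p, miR-219a-5p from Mir219a-1, miR-219a-5p from Mir219a-2 and miR-29c-3p, followed at a distance by miR-338-5p, miR-29b-3p and miR-29c-5p. miR-338-3p had 96 reads (77.8 to 117), or 3.69 reads per base of its cluster. miR-29a-3p had 80 (63.4 to 99.6), or 3.48 per base. Mir219a-1 had 65 (50.2 to 82.8; 2.60 per base). These values overlap with their neighbours in the order, and the top of the order is not resolved by counting error. Mir219a-2 had 45 reads (32.8 to 60.2; 1.96 per base) and miR-29c-3p had 42 (30.3 to 56.8; 1.83 per base), both with intervals below that of miR-338-3p. miR-338-5p had 13 (6.92 to 22.2; 0.591 per base), miR-29b-3p at Mir29b-2 had 7 (2.81 to 14.4; 0.250 per base) and miR-29c-5p had 4 (1.09 to 10.2; 0.211 per base). The last 3 do not differ beyond their intervals and lie below the first 5.

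In the knockout-labelled IP, read over the wild-type clusters, the order of the miR-219 copies was turned. miR-338-3p again came first with 84 reads (67.0 to 104), and Mir219a-2 came next with 63 (48.4 to 80.6). miR-29a-3p followed with 46 reads (33.7 to 61.4) and miR-29c-3p with 40 (28.6 to 54.5). Mir219a-1 had 29 (19.4 to 41.6), miR-338-5p had 7, miR-29b-3p 6 and miR-29c-5p 3. Among miR-29 3p reads, miR-29a made up 62.0% in wild type (53.1 to 70.4) and, under the knockout label, 46 of 92 reads (39.4 to 60.6%). miR-29c made up 32.6% (24.6 to 41.4) and 43.5% (33.2 to 54.2), and miR-29b 5.43% (2.21 to 10.9) and 6.52% (2.43 to 13.7). The intervals of each share overlap between libraries.

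In wild type, all 6 genes with a region were enriched over input at their strongest cluster, by limits of 3 for both the authors' -log10 p and the authors' log2 of IP over input, against 24.1% of all wild-type clusters and 89.1% of the 312 miRNA genes with a region. The listed log2 was 9.25 for Mir338 (interval 6.74 to 14.57), 8.99 for Mir29a (6.47 to 14.31), 8.69 for Mir219a-1 (6.16 to 14.01), 8.16 for Mir219a-2 (5.60 to 13.49), 8.06 for Mir29c (5.50 to 13.39) and 5.47 for Mir29b-2 (2.51 to 10.97). In the knockout-labelled library 5 of 6 were enriched, against 3.08% of all clusters and 68.7% of 339 miRNA genes. The log2 there was 7.31 for Mir338 (4.80 to 12.64), 6.89 for Mir219a-2 (4.36 to 12.22), 6.43 for Mir29a (3.88 to 11.77), 6.22 for Mir29c (3.66 to 11.56) and 5.75 for Mir219a-1 (3.15 to 11.10). Mir29b-2, with 5 IP reads, had 3.26 (0.10 to 8.83) at a -log10 p of 1.69 and did not pass. Of the weaker arms, miR-338-5p passed in wild type (6.36) and not in the knockout-labelled library (3.52), and miR-29c-5p did not pass in wild type (4.66 at a -log10 p of 2.81). At all of these clusters the input stood at 1 read, the lowest the scores can show and possibly 0, so each log2 is a lower bound that restates the IP reads. The intervals over input take that 1 read as counted, so they are not exact where it was 0.

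Among miRNA genes, 5 members ranked from 89 to 159 of 312 in wild type, and Mir29b-2 was far lower at 253. There, 28.2% of miRNA genes had a higher log2 over input than Mir338 (rank 89 of 312), 34.6% a higher one than Mir29a, 40.1% than Mir219a-1, 48.7% than Mir219a-2, 50.6% than Mir29c and 80.8% than Mir29b-2. In the knockout-labelled library these shares were 25.1% for Mir338 (rank 86 of 339), 31.3% for Mir219a-2, 37.5% for Mir29a, 41.9% for Mir29c, 50.1% for Mir219a-1 and 74.9% for Mir29b-2. The members' median log2 was 8.42 for wild type and 6.33 for the knockout-labelled library, beside 8.09 (quartiles 6.22 and 9.46) and 5.80 (3.39 and 7.32) over all miRNA genes with a region. Each library thus had 4 of 6 members above its median miRNA gene. Against only those miRNA genes with 20 or more IP reads or a -log10 p at its ceiling of 400, Mir338 alone stood above the median in both.

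**Figure D2:**
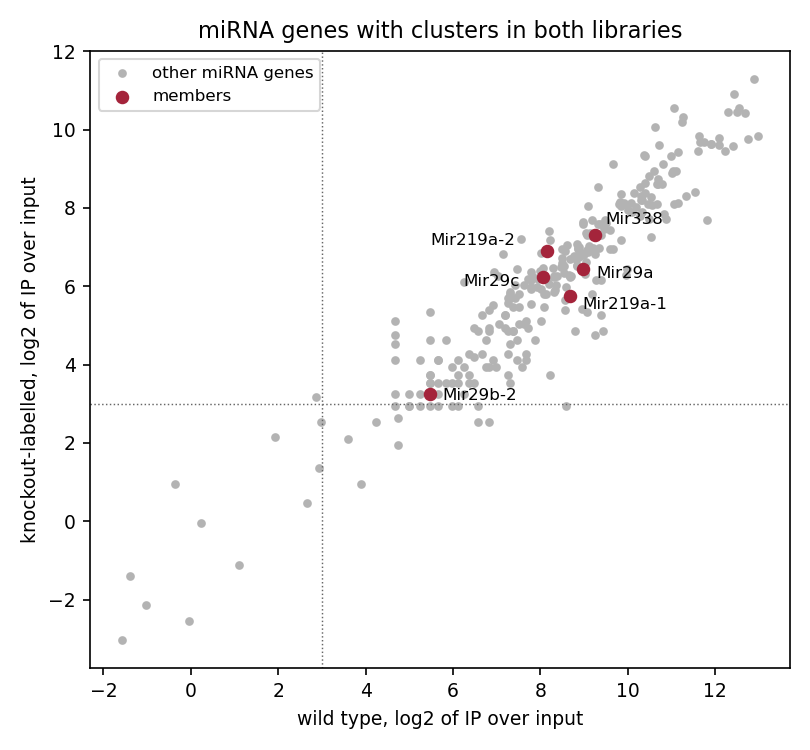
Each point is a miRNA gene with regions in all tables, by the authors' log2 of IP over input for wild type (horizontal) and the knockout-labelled library (vertical), and dotted lines mark the limit of 3. Members are red: Mir338 is highest (9.25 and 7.31), Mir29b-2 lowest (5.47 and 3.26), and Mir219a-1 (8.69 and 5.75) lies below and Mir219a-2 (8.16 and 6.89) above the other members' line.

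Over the 3 log2 values (wild type over input, knockout-labelled over input, and IP against IP in the authors' deposited table), the other miRNA genes nearest to the miR-29 median were Mir26b, Mir146 and Mir19a, at Euclidean distances of 0.13, 0.20 and 0.25 among 286 genes with all 3. Nearest to the miR-219 median were Mir323 (0.07), Mir340 (0.14) and Mir362 (0.15), and nearest to Mir338 were Mir185 (0.04), Mir150 (0.08) and Mir138-1 (0.10). The 2 miR-219 genes lie on either side of their median, so their neighbours describe neither gene.

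Set directly against each other, the wild-type IP held more of the members' RNA per sequenced read than the knockout-labelled IP. In the authors' deposited table, the log2 of wild type over knockout-labelled was 2.35 for Mir219a-1 (1.70 to 3.04), 1.99 for Mir29a (1.45 to 2.54), 1.41 for Mir29b-2 (-0.39 to 3.26), 1.38 for Mir338 (0.94 to 1.82), 1.26 for Mir29c (0.60 to 1.92) and 0.70 for Mir219a-2 (0.12 to 1.28). At a -log10 p of 3 or more with a log2 of 1 or more, the authors' deposited table had 4 of 6 as higher in wild type (Mir219a-1, Mir29a, Mir338 and Mir29c), against 3.39% of all its regions, 64.1% of 312 miRNA genes and 8.77% of 3123 regions outside miRNA genes with 20 or more reads. The members' count is near that of miRNA genes in general. Their median in the authors' deposited table was 1.40, below the 1.55 of all miRNA genes (quartiles 1.21 and 2.00) and the 1.56 of the 178 miRNA genes with as many reads as they had (13 to 180). Summed over all 8 clusters, 352 wild-type and 278 knockout-labelled reads gave a log2 of 1.53 (1.30 to 1.76).

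How far these values stand from no difference depends on the centre. In the authors' deposited table the median was 0.38 over regions outside miRNA genes with 20 or more reads, and 2.77 over all regions, most of which rest on few reads. All 6 members stood above the first, with the intervals of Mir219a-2 and Mir29b-2 reaching below it, and all 6 below the second, with the intervals of Mir219a-1 and Mir29b-2 reaching above it. With wild type and knockout-labelled each set over its own input, the difference of log2 was 2.94 for Mir219a-1, 2.55 for Mir29a, 2.21 for Mir29b-2, 1.93 for Mir338, 1.83 for Mir29c and 1.26 for Mir219a-2, beside a median of 2.05 over 286 miRNA genes (quartiles 1.69 and 2.50). The depth ratios alone give 1.72 where IP and input reads are equal, and with inputs at 1 read or none this difference restates the IP reads.

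**Figure D3:**
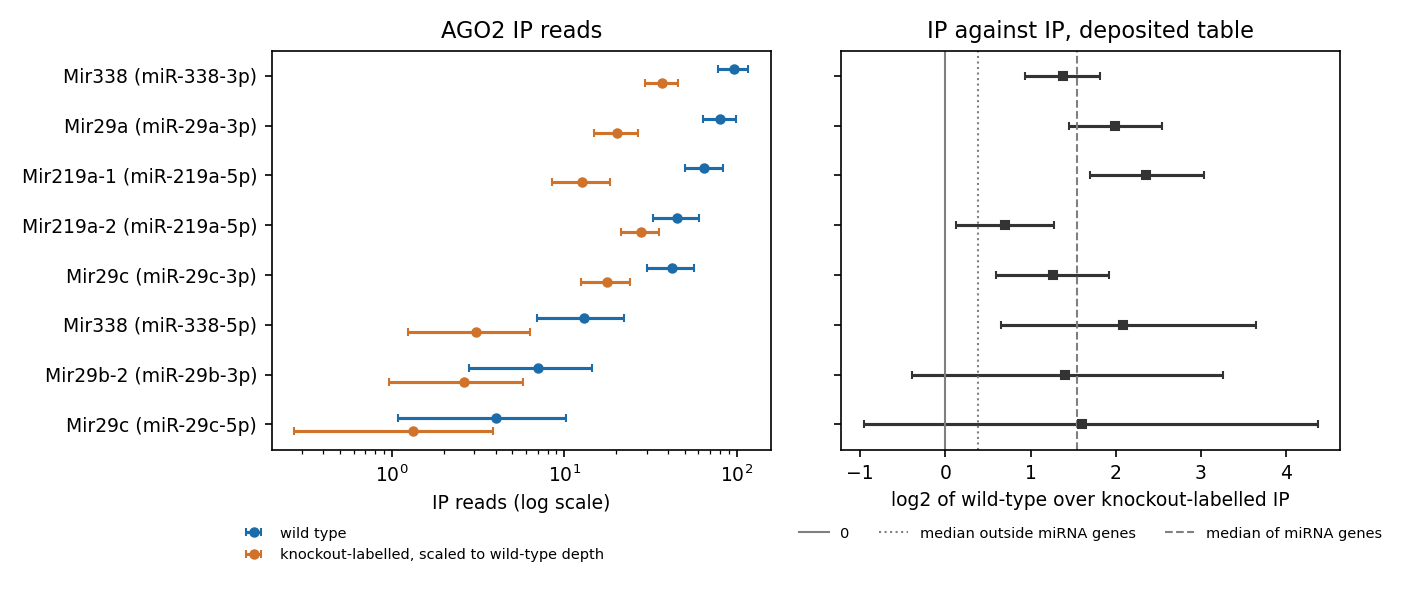
Left, IP reads of each mature strand on a log axis, blue for wild type and orange for the knockout-labelled library over the same bases, divided by the depth ratio of 2.28. Right, the log2 of wild type over knockout-labelled in the authors' deposited table. Bars are exact 95% intervals of counting error, and lines mark 0, the median of regions outside miRNA genes (0.38) and that of miRNA genes (1.55). The interval of Mir219a-1 (1.70 to 3.04) does not meet that of Mir219a-2 (0.12 to 1.28).

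The 2 genes of miR-219a stood apart although their product is the same. Mir219a-1 had 65 wild-type and 29 knockout-labelled reads, and Mir219a-2 had 45 and 63. The Mir219a-1 share of miR-219a-5p reads was therefore 59.1% for wild type (49.3 to 68.4) and 31.5% for the knockout-labelled library (22.2 to 42.0), or 31.1% (21.8 to 41.7) over that library's own clusters, and the intervals do not overlap. Summed over both genes, the reads were 110 and 92, a log2 of 1.45 (1.03 to 1.86), beside 1.68 (1.28 to 2.08) for the 3p strands of miR-29 (129 and 92 reads) and 1.45 (1.03 to 1.87) for Mir338 (109 and 91). The intervals of the 3 families overlapped. Copies of one mature sequence could be compared 20 times over 17 pairs of miRNA genes, since the 3 Mir9 pairs had reads on both arms, and the median difference was 0.70 in the log2 of the authors' deposited table. Mir219a-1 and Mir219a-2, at 1.65, were exceeded by none, and Mir9-1 and Mir9-2 came next at 1.61 for miR-9-5p, with intervals that overlapped. Mir16-1 and Mir16-2 (0.82) were the other pair whose intervals did not overlap. The part of read placement in the difference between the miR-219a copies was not tested.

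miR-29b was seen from one gene only. Mir29b-2 gave 7 wild-type and 6 knockout-labelled reads and Mir29b-1 no cluster, although Mir29a, its neighbour at 275 bases, had 80 and 46. The 25 bases that the miR-29b copies share are longer than the mature strand of 23, so reads of the mature strand alone cannot be placed. Of 54 mature sequences made by more than one gene, 7 had reads at some copies and no region with reads at others. No cluster was called at Mir29b-1, which is not the same as no reads.

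The transcripts around the members carried clusters of their own. Aatk, whose intron holds Mir338, had 13 further regions in wild type with 4 enriched (30.8%, against 24.1% of all), or 8 clusters with 3 enriched once abutting regions of one score were joined. The strongest was a 3′ UTR cluster at chr11:120007381-120007452 with 12 IP reads and 1 input read (log2 6.25). In the knockout-labelled library Aatk had 11 further regions with 1 enriched (9.09%, against 3.08% of all), or 10 clusters once joined. The enriched one lay in the 3′ UTR at chr11:120007353-120007456 with 18 reads and 1 (5.11). A330023F24Rik, around Mir29b-2 and Mir29c, had 2 further regions in wild type and 1 under the knockout label, none enriched. Both in wild type were below input, the higher at a log2 of -0.51 (6 IP and 54 input reads). Gm27019 and Gm26940 had none.

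Sites for these miRNAs were then sought where AGO2 sat on mRNAs. A site was a match to bases 2 to 8 of the miRNA, or to bases 2 to 7 followed by A, on the transcript strand inside an enriched 3′ UTR peak. The matches are TGGTGCT and GGTGCTA for miR-29, GACAATC and ACAATCA for miR-219a-5p, and ATGCTGG and TGCTGGA for miR-338-3p. Each share is set beside that of windows of the same length that start 100 bases from the peak in the same 3′ UTR. In wild type, 30 of 3190 peaks held a miR-29 site (0.940%, 0.635 to 1.34), against 0.681% of 5727 windows (0.485 to 0.930). miR-219a-5p sites were in 13 peaks (0.408%, 0.217 to 0.696), against 0.314% of windows (0.186 to 0.496). miR-338-3p sites were in 16 peaks (0.502%, 0.287 to 0.813), against 0.786% (0.574 to 1.05). For none of the 3 seeds did the peaks stand apart from the windows beyond their intervals.

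The intervals overlapped in the knockout-labelled library too. Of 959 peaks, 11 held a miR-29 site (1.15%, 0.574 to 2.04), against 1.30% of 1690 windows (0.818 to 1.96). For miR-219a-5p the shares were 0.417% (4 peaks, 0.114 to 1.06) and 0.355% (0.130 to 0.771), and for miR-338-3p 1.36% (13 peaks, 0.724 to 2.31) and 1.48% (0.960 to 2.18). let-7 and miR-9, measured in the same way, did stand apart. let-7 sites were in 4.98% of wild-type peaks (4.26 to 5.80) and 0.524% of windows (0.354 to 0.747), and in 9.70% (7.90 to 11.7) and 1.18% (0.724 to 1.82) in the knockout-labelled library. miR-9 sites were in 3.82% of wild-type peaks (3.19 to 4.55) and 0.838% of windows (0.619 to 1.11), and in 5.63% (4.26 to 7.28) and 1.07% (0.632 to 1.68) in the other. At the strongest cluster of either arm, the 3 miR-9 genes had a median log2 over input of 7.62 in wild type and 5.03 in the other. Their wild-type range was 7.31 to 9.26. Members were at 5.47 to 9.25 and 3.26 to 7.31, and the 9 let-7 genes had medians of 10.30 and 8.21. The wild-type miR-9 median came from Mir9-2, with 31 wild-type reads on miR-9-3p and 21 on miR-9-5p. It is therefore not the level of miR-9-5p, whose sites were counted. miR-9-5p itself had 25 wild-type and 7 knockout-labelled reads at Mir9-1, 21 and 18 at Mir9-2, and 94 and 34 at Mir9-3.

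**Figure D4:**
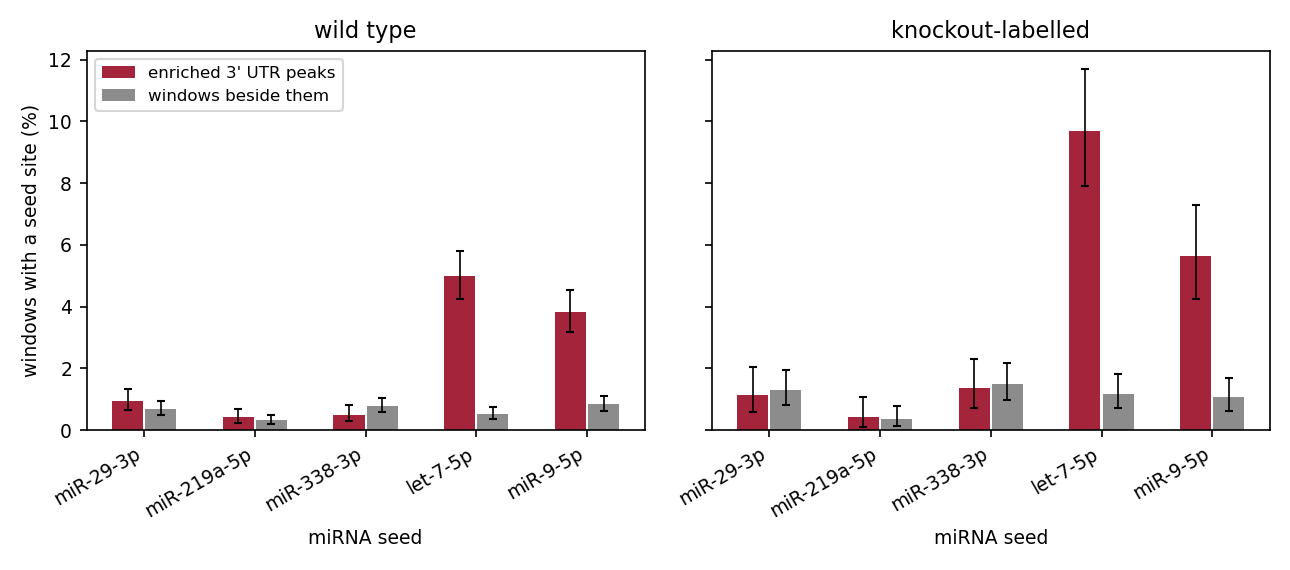
Percent of enriched 3′ UTR peaks (red) and of same-length windows beside them (grey) that hold a seed site, for the members' 3 seeds and for let-7 and miR-9, by library, with exact 95% binomial intervals. For miR-29, miR-219a-5p and miR-338-3p the bars overlap within their intervals. For let-7 (4.98% against 0.524% in wild type) and miR-9 (3.82% against 0.838%) they do not.

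Widening each peak by 50 bases on either side, so that sites beside a cluster count too, gave 2.35% for miR-29 (1.85 to 2.94), 1.0% for miR-219a-5p (0.687 to 1.41) and 2.29% for miR-338-3p (1.80 to 2.87) in wild type. Windows of that length held 2.26% (1.87 to 2.70), 0.837% (0.606 to 1.13) and 2.45% (2.05 to 2.91). Full 8-base sites of miR-219a-5p were in 5 wild-type peaks (0.157%, 0.0509 to 0.365) and 2 of the windows (0.0349%, 0.00423 to 0.126), with intervals that overlap. Over all wild-type 3′ UTR clusters, enriched or not, miR-338-3p sites were in 32 of 8597 (0.372%, 0.255 to 0.525), below the 97 of 15635 windows (0.620%, 0.503 to 0.756), and the ends of these intervals just overlap. With limits of 5 for the -log10 p and 4 for the log2, 1.24% of wild-type peaks held a miR-29 site (0.739 to 1.96). The windows beside them held 0.656% (0.383 to 1.05). In the knockout-labelled library these shares were 1.28% (0.415 to 2.95) and 1.28% (0.588 to 2.42). The wild-type miR-29 share was above that of windows in every setting run, always with intervals that overlapped. The differences between peaks and windows were not tested themselves.

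Of the first 5 genes by -log10 p for each seed, those found in both libraries or on the list of known targets are shown, with 24 bases of mRNA sense and the matched bases in capitals. A match is a description, and other miRNAs may account for the same peak.
Morf4l2 (miR-29, chrX:136733194-136733217, minus strand): ctttttttttttttaTGGTGCTtg
Btg2 (miR-29, chr1:134075786-134075809, minus strand): cagtttctgctcaaaGGTGCTAtt
Col4a2 (miR-29, chr8:11448515-11448538, plus strand): ccaccacacccagctTGGTGCTta
Bbc3 (miR-29, chr7:16317535-16317558, plus strand): ctcaggaaaggctgcTGGTGCTgg
Syt5 (miR-219a-5p, chr7:4539868-4539891, minus strand): cctaccctctgctttGACAATCAg
Sema7a (miR-338-3p, chr9:57962208-57962231, plus strand): aaataccaaaactacATGCTGGgg
Wtip (miR-338-3p, chr7:34109968-34109991, minus strand): tcaagtcacttccccTGCTGGAtt
Lrrc58 (miR-338-3p, chr16:37885634-37885657, plus strand): gtcagcgtggtggggATGCTGGgg

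For miR-29, the wild-type peaks were led by Morf4l2, a chromatin-complex gene, with 32 IP reads and 1 input read (log2 7.66). Then came Col4a2, which encodes a chain of the type IV collagen of basement membranes (13 and 1, 6.36), and Btg2, an antiproliferative gene of neural progenitors (12 and 1, 6.25). Ctnnb1, the gene of β-catenin (13 and 3, 4.78), and Kdm6b, a histone demethylase gene (12 and 2, 5.25), completed the first 5. In the knockout-labelled library the first were Morf4l2 (46 and 2 reads, 5.46), Btg2 (29 and 1, 5.80), Dicer1, the gene of the enzyme that cuts miRNA hairpins (18 and 2, 4.11, with a full 8-base site), Bicd1 (20 and 4, 3.26) and Bbc3 (15 and 1, 4.85). In the authors' deposited table the log2 of wild type over knockout-labelled was 0.63 at the Morf4l2 peak (32 and 47 reads), 0.50 at Col4a2 (13 and 21), -0.13 at Btg2 (12 and 30), 2.89 at Ctnnb1 (13 and 4) and 1.07 at Kdm6b (12 and 13). Only the Btg2 value was negative, and it was small. Each value rests on few reads, so a difference in direction between these peaks is not shown.

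For miR-219a-5p, Syt5, a synaptotagmin gene of vesicle release, carried a full 8-base site in a peak of both libraries, with 12 IP and 2 input reads in wild type (log2 5.25) and 15 and 2 in the other (3.85). In the authors' deposited table it had a log2 of 0.77 (12 and 16 reads). The other wild-type peaks lay on Rnf6 (5.83), Adam10, which encodes a sheddase of the cell surface (5.66), Laptm4a (4.66) and Tpcn1 (5.47), with 7 to 9 IP reads each. The knockout-labelled library had 4 such peaks in all, the others on Tnrc6a, a scaffold gene of the silencing complex (3.81), Kmt2d, a histone methyltransferase gene (5.11), and Erg (3.64).

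For miR-338-3p, Sema7a, a semaphorin gene, had the strongest peak with a site in either library. It held 67 IP reads and 1 input read in wild type (log2 8.73) and 81 and 4 in the knockout-labelled library (5.28), and its log2 in the authors' deposited table was 0.90 (67 and 82 reads). Wtip (23 and 2 reads, 6.19) and Lrrc58 (17 and 2, 5.75) also had such peaks in both libraries, and Atxn7l3 (5.25) and Ncs1, a neuronal calcium sensor gene (4.99), in the wild-type ranks. Trim67 (5.19) and Insm1, a neuroendocrine transcription factor gene (4.85), were in the ranks of the knockout-labelled library, where Lrrc58 had 3.22 and Wtip 5.11.

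Few known or proposed targets of miR-29 showed the matching site under AGO2, though their share was above that of all protein-coding genes. Of 54 listed miR-29 targets, 31 had an exonic cluster in wild type (57.4%, against 6579 of 21951 protein-coding genes) and 20 an enriched one (37.0% against 15.1%). A 3′ UTR cluster with a miR-29 site was found for 3 of them (5.56% of the list, against 0.264% of protein-coding genes). They were Col4a2, Bbc3, which encodes the BH3-only cell death protein PUMA (11 IP reads and 1 input read, log2 6.12), and Nasp, a histone chaperone gene, whose cluster was not enriched (4 and 1, -log10 p 2.81). In the knockout-labelled library 41 had an exonic cluster (75.9% against 38.0%) and 10 an enriched one (18.5% against 5.18%), and a site was found for 3 (5.56% against 0.392%): Bbc3, and, in clusters that were not enriched, Tet3, a gene of DNA demethylation (8 and 1), and Mcl1, a cell survival gene (4 and 1). The Bbc3 site lay in an enriched peak of both libraries, and its log2 in the authors' deposited table was 0.65 (11 and 16 reads). Among genes with a 3′ UTR cluster, 16.7% of 18 listed genes had a site in wild type, against 1.58% of all such genes. Under the knockout label it was 11.5% of 26, against 1.92%. The list was drawn from general knowledge of miR-29 with earlier results of these data known, so its counts are a description. Targets are often proposed because their 3′ UTR holds such a site. A share of sites above that of all genes was therefore partly given in advance, and no conclusion is drawn from it. The protein-coding genes set beside it, here and below, are all those annotated and were not matched for expression.

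The miR-219 and miR-338 lists gave no such site. Of 17 listed miR-219 targets, which include the precursor genes Pdgfra and Sox6, 12 had an exonic cluster in wild type (70.6%, against 6579 of 21951 protein-coding genes) and 14 under the knockout label (82.4% against 38.0%). An enriched one was found for 7 (41.2% against 15.1%) and 0 (against 5.18%), and 0 had a 3′ UTR cluster with a site in either (0.118% and 0.196% of protein-coding genes). Of 16 listed miR-338 targets, 14 (87.5%) and 16 had an exonic cluster, 11 (68.8%) and 1 (6.25%) an enriched one, and 0 a 3′ UTR cluster with a site (0.146% and 0.355%). A 3′ UTR cluster of any kind was found for 7 and 10 genes of the miR-219 list and 8 and 11 of the miR-338 list. With background shares this low, finding no site in lists of this size says little.

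Marker mRNAs were counted against the same shares of protein-coding genes, 6579 of 21951 with an exonic cluster in wild type and 38.0% in the other library. Of 14 oligodendrocyte lineage markers 3 had an exonic cluster in wild type (Olig1 and Myrf enriched) and 7 under the knockout label (Olig1 enriched). Olig2, Sox10, Pdgfra, Mbp and Nkx2-2 had none in wild type, Myrf none under the knockout label, and Cspg4, Gpr17, Mog, Mag, Cnp and Mobp none in either. Of 11 astrocyte markers 9 and 11 had one, of 10 neuronal markers 10 and 10, of 6 microglial markers 2 and 1, and of 6 endothelial and mural markers 3 and 5. An enriched cluster was on 4 and 1 of the astrocyte markers and on 9 and 6 of the neuronal ones. For microglial markers it was 1 and 0, and for endothelial and mural markers 0 and 0. Of all protein-coding genes, 15.1% and 5.18% had an enriched one. Clusters on mRNA depend on AGO2 binding as well as on RNA level, and in whole brain fewer cells of a type and less RNA per cell cannot be told apart. The cells that made the miR-29, miR-219 and miR-338 RNA were therefore not identified.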

How the data were processed

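Per the labels' protocols, reads were trimmed with cutadapt 1.15, repeat reads were removed, the rest were mapped to mm10 with STAR 2.6.0c, duplicates were removed with UMI tools (5.2 in the labels), and clusters were called per IP with CLIPper 1.4. Each deposited file lists, for every cluster, the log2 of IP over input and a −log10 p with a ceiling of 400, both computed by the authors, and how the deposited series table was made is not given in the sources used here. Wild type was taken as its numerator because 46799 of its 46862 regions are those of the wild-type file.

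Reads were recovered from the scores: log2 values were a depth constant plus the log2 of a whole-number ratio in 99.97%, 99.97% and 99.96% of regions (wild type, knockout-labelled, series), and the listed p was met within 1% for all with a −log10 p between 0 and 400. Wild-type reads from both tables were equal in 42616 of 42616 regions. The recovery and the site search were also run on simulated data. These were made with the same p formula, depth constants and site strings, so they check the code and not those choices.

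Of several regions on a gene, the one with the largest −log10 p stood for it. Named were the members, miRNA genes within 10 kb, host genes, the 3 nearest miRNA genes, the first 5 genes per seed and library, and up to 8 listed targets with a site. The members and lists were chosen with earlier results of these data known. Python 3.11.15, SciPy 1.17.1 and pysam 0.24.0 were used.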

Additional observations from a re-analysis of the deposited data

How the results depend on the processing

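Over input, the members enriched stayed at 6 of 6 in wild type under every alternative run (limits of 5 and 4, other choices of region, other overlap rules), and the knockout-labelled count was 5, or 4 with the longest region. Against the knockout-labelled IP, 4 members passed in the main setting, 1 at limits of 5 and 2, 2 with the region of highest log2, 2 with log2 centred on regions outside miRNA genes, and 0 with log2 centred on all regions. That last centring also turned the members' median to -1.38, Mir29a to -0.79, Mir29c to -1.51, Mir219a-1 to -0.42, Mir338 to -1.39, Mir29b-2 to -1.36 and Mir219a-2 to -2.07, because it subtracts 2.77. Among miRNA genes with 20 or more IP reads or a -log10 p at its ceiling, 1 member stood above the median of either library, against 4. The share of peaks less that of windows, in percentage points, moved from 0.062 to 0.654 for miR-219a-5p in the knockout-labelled library when regions were widened, and from -0.284 to -0.011 for miR-338-3p in wild type with 8-base sites alone, and the cause was not tested. No paired analysis was possible because each genotype had 1 IP library and the labels carry no replicate numbers. The same difference changed sign within counting error under other settings for each seed in the knockout-labelled library. A miR-124 comparison was planned and not run, because its sequence is not in the table used. Leaving out a replicate could not be run for the same reason as pairing. Read counts limit the smaller members: Mir29b-2 and miR-29c-5p rest on 7 and 4 wild-type reads.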
